A study of Drosophila melanogaster with 6 samples.

Results

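The circadian clock genes of Drosophila melanogaster described here are 10 genes, found by their symbols in a deposited table of 17737 genes: the activators Clk and cyc, the repressors per, tim and cwo, the regulators vri and Pdp1, the light receptor gene cry and the kinase genes dco and sgg. All 10 were found, and 9 of the 10 were among the 9495 genes with enough reads to be tested, the exception being Clk. RNA was sequenced from brains of late larvae (the third instar), with 3 libraries per group. Controls had elavC155-Gal4, an insertion that makes neurons produce the yeast activator Gal4. For the DNMT3L group elavC155-Gal4 was crossed to a w/w stock that carried P(UAS-DNMT3L,w+) over the balancer Cyo, with TM2 over TM6B on chromosome 3, so both groups carried the driver and only the second could carry the transgene for DNMT3L, a mammalian partner of DNA methyltransferases. Selection against larvae with the balancer is not mentioned in the labels. The labels name no UAS control on the same chromosomes, so the transgene cannot be told apart from the balancers and the genetic background of the cross. They give neither the hour of dissection, nor the light regime, nor whether the libraries of a group hold separate animals, and p-values here measure only the spread between these libraries.

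The fly clock is a loop of transcription and delayed repression. The CLK and CYC proteins form a pair that binds DNA and activates per, tim, vri, Pdp1 and cwo. PER and TIM accumulate, enter the nucleus and shut that pair down, while VRI represses and PDP1 activates Clk in a second loop. The kinases encoded by dco (doubletime) and sgg (shaggy) phosphorylate PER and TIM and set the pace, and CRY absorbs blue light and sends TIM to destruction. In adult heads the transcripts of per, tim and vri peak around dusk and those of Clk and cry near dawn, whereas cyc does not cycle. In the larval brain the clock runs in a few small clusters of neurons, of which the lateral neurons release the neuropeptide PDF. In whole brains, fewer clock cells and less RNA per cell cannot be told apart.

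In DNMT3L brains the transcripts of per and cry were close to 2-fold higher than in controls, and every DNMT3L library lay above every control library for per, cry and cwo. For cwo the lowest DNMT3L library was only 1.01 times the highest control. Of all genes tested, 14.0% had groups apart and higher in DNMT3L and 14.1% apart and lower. The transcript of cyc was lower in all DNMT3L libraries than in all controls after TMM scaling, but the groups overlapped in the deposited FPKM. For tim, vri, Pdp1, dco and sgg the means were higher in DNMT3L but the groups overlapped. Clk was barely detected. With edgeR, none of the 9 genes tested passed a Benjamini-Hochberg adjusted p of 0.05 over all genes, and neither did any other gene (0% of 9495). Log2 fold changes were above 0 for 8 of the 9, against 47.7% of all genes tested. At an unadjusted edgeR p under 0.05 there were 2 of the 9, per and cry, against 15.0% of all genes tested. Neither DESeq2 nor limma on log2(FPKM + 1) called any of them after adjustment, and each had the same 2 at an unadjusted p under 0.05. With edgeR these were per, vri and sgg without control 2, cry alone without control 3 or DNMT3L 1, and none without control 1, DNMT3L 2, DNMT3L 3 or both libraries numbered 1.

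Total counts per library lay between 17928420 and 19251845. Values are CPM (read counts relative to library size) scaled by TMM factors, unless FPKM, which is also relative to exonic length, is named. The brain markers elav (neurons), repo (glia) and dpn (neural stem cells) were read in all 6 libraries. Marker transcripts of several cell types differed between the libraries. The summed CPM of 5 neuron markers lay between 102 and 494 in controls and between 567 and 1128 in DNMT3L, and that of 5 neuroblast markers between 225 and 399 against 435 and 491. Sums of 5 muscle markers (345 to 717 against 73.7 to 284) and of 6 fat body markers (1082 to 2037 against 510 to 783) went the other way, while sums of 6 glial markers overlapped (1196 to 1606 against 1010 to 1499). The groups were apart and higher for 4 of the 5 neuron markers, and 4 of the 5 neuroblast markers, and apart and lower for 4 of the 5 muscle markers. Over all genes tested 14.0% were apart and higher and 14.1% apart and lower. Of the 6 fat body markers 5 had a negative log2 fold change, 3 were apart and lower, and Fbp2 was apart and higher (1.09, 1.36 and 0.342 CPM in controls 1 to 3 against 17.1, 19.7 and 24.5 CPM in DNMT3L 1 to 3). Sums of 5 hemocyte markers (61.5 to 179 against 43.7 to 63.9), 5 cuticle markers (289 to 1051 against 76.9 to 322, Cpr49Ab at 0 throughout), 6 salivary gland markers (12.9 to 56.3 against 24.5 to 192) and 6 photoreceptor markers (12.2 to 29.6 against 12.2 to 30.1) overlapped. All 5 hemocyte markers nonetheless had a negative log2 fold change at an unadjusted edgeR p under 0.05, beside 8.79% of all genes tested. Of these markers NimC1 and srp were apart and lower. Control 1 held the lowest neuron marker sum and the highest muscle and fat body sums, and DNMT3L 1 the highest neuron sum and the lowest muscle and fat body sums. The part of these differences in the values below was not tested.

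Levels per length differed widely within the loop. Averaged over the 6 libraries, cyc was the most abundant at 38.3 FPKM, followed by dco at 32.5, vri at 17.7, sgg at 8.0 and cwo at 5.34 FPKM. Pdp1 was at 1.16, per at 0.777, cry at 0.767, tim at 0.342 and Clk at 0.0217 FPKM. Against the 13904 genes with any read, cyc ranked at the 84th percentile and per and cry at the 35th, so the core repressor and the light receptor were minor transcripts in a whole brain. Within controls the FPKM ranges of cyc (36.9 to 41.1) and dco (14.3 to 35.2) were apart, as were those of cwo and Pdp1 and of tim and Clk. The ranges of the other neighbours in the order overlapped among controls, although dco exceeded vri, and vri exceeded sgg, in 3 of 3 control libraries. In DNMT3L brains dco (39.3 ± 10.2 FPKM, SD, n = 3) and cyc (37.9 ± 1.87 FPKM) overlapped, and so did the neighbours sgg and cwo, Pdp1 and per, and per and cry.

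**Figure D1:**
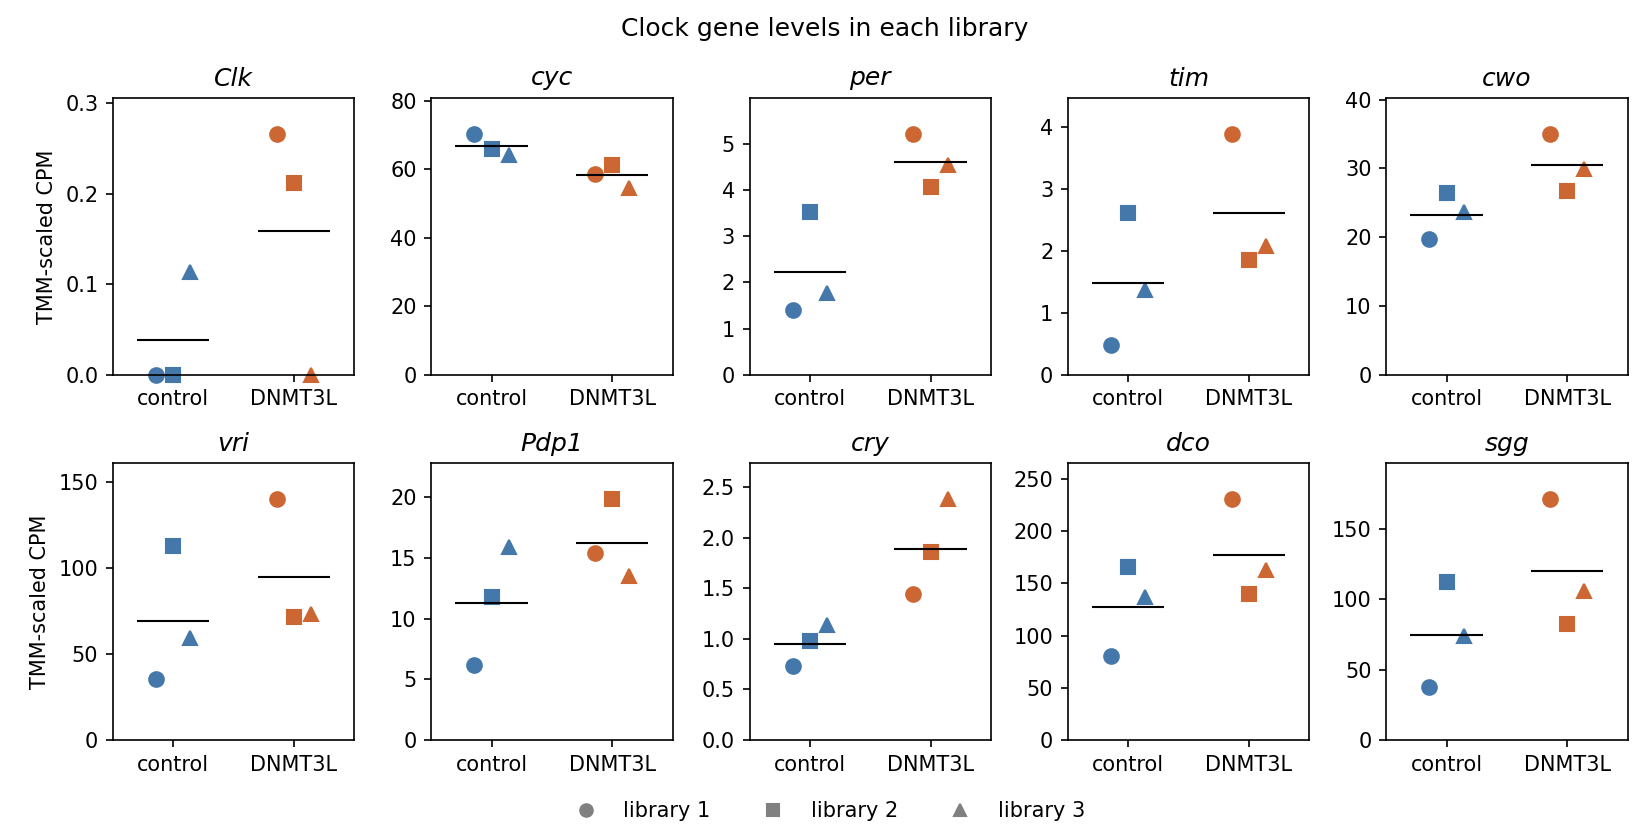
TMM-scaled CPM of the 10 clock genes on linear axes from 0, one panel per gene, with control libraries in blue, DNMT3L libraries in orange, a symbol for each library number and a bar at the mean of 3. On this scale the groups are apart for cyc, per, cwo and cry (in FPKM those of cyc overlap), and control 1 (blue circle) is the lowest library for all of these except cyc.

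The activators stood far apart in level. Clk encodes the bHLH-PAS activator without which the loop does not run. It had 0, 0 and 2 reads in controls 1 to 3 and 5, 4 and 0 reads in DNMT3L 1 to 3. These counts lie close to the floor of 3 reads per library, which stands for 0.152 to 0.182 CPM. Over the groups this was 2 reads against 9, a ratio of 4.11 with an exact 95% interval from 0.85 to 39.1 that covers counting error only, so no difference in Clk was detectable at this depth. The gene lies on the minus strand of chromosome 3L (BDGP6 build) from 7763233 to 7775603, with 5 annotated transcripts.

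Its partner cyc was on average the most abundant of the clock genes per length. Expression of cyc was 70.2, 65.9 and 64.1 CPM in controls 1 to 3 and 58.6, 61.3 and 54.5 CPM in DNMT3L 1 to 3. On this scale every DNMT3L library was below every control. The means were 66.7 ± 3.15 against 58.2 ± 3.42 CPM (SD, n = 3), a log2 fold change of −0.20 ± 0.13 (SE; edgeR adjusted p = 0.379). In the deposited FPKM, which are relative to total counts, cyc was at 36.9, 41.1 and 37.9 in controls 1 to 3 and at 37.8, 39.8 and 36.1 in DNMT3L 1 to 3, so the groups overlapped, and limma on log2(FPKM + 1) gave −0.03. Over all genes tested the median log2 fold change was −0.03 by edgeR and 0.12 by this limma fit. These fits differ in scaling, pseudocount and model, and the part of each was not tested. Over all 6 libraries there were 11 Clk reads beside 6834 cyc reads. Clk reads thus made up 0.161% of the reads of the pair (exact binomial 95% interval 0.0802% to 0.287%, counting error only), although the exons of Clk (4516 bases) are longer than those of cyc (1625 bases).

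The repressors differed in how far their groups stood apart. Expression of per, whose product carries the repression, was 1.40, 3.53 and 1.76 CPM in controls 1 to 3 and 5.22, 4.07 and 4.55 CPM in DNMT3L 1 to 3. The lowest DNMT3L library was 1.16 times the highest control, control 2. Group means were 2.23 ± 1.14 and 4.61 ± 0.573 CPM (SD, n = 3), 2.06-fold higher in DNMT3L, with a log2 fold change of 1.04 ± 0.40 (SE; edgeR adjusted p = 0.332, unadjusted p = 0.0377). These values rest on 119 reads in controls and 265 in DNMT3L. Leaving out control 2 took the log2 fold change to 1.54, and leaving out control 1 took it to 0.80 with an edgeR unadjusted p of 0.0839. It was 0.90 without control 3 (edgeR unadjusted p = 0.114) and 0.70 without both libraries numbered 1 (unadjusted p = 0.164). By limma on log2(FPKM + 1) it was 0.51. The gene lies on X from 2685580 to 2692780 on the plus strand, and its exons share 49 bases with dyw on the opposite strand.

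For tim, whose product binds PER and is lost in light, the level was 0.486, 2.60 and 1.37 CPM in controls 1 to 3 and 3.89, 1.85 and 2.07 CPM in DNMT3L 1 to 3. Control 2 exceeded both DNMT3L 2 and DNMT3L 3, so the groups overlapped. The log2 fold change was 0.80 ± 0.62 (SE; edgeR adjusted p = 0.439), from 80 and 149 reads per group, and it was 1.48 without control 2, 0.39 without control 1 and 0.39 without DNMT3L 1. With both libraries numbered 1 left out it was −0.02. The gene lies on 2L from 3493986 to 3508119 on the minus strand, and 545 of its exonic bases lie under a noncoding RNA of the opposite strand. Its exons also share 151 bases with a small nucleolar RNA gene of the same strand.

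The remaining repressor gene, cwo, encodes a bHLH-Orange protein that occupies the same sites as the CLK and CYC pair. It was at 19.8, 26.4 and 23.6 CPM in controls 1 to 3 and at 35.0, 26.7 and 29.9 CPM in DNMT3L 1 to 3. All DNMT3L libraries were higher, but DNMT3L 2 exceeded control 2 by a factor of only 1.01. The means were 23.2 ± 3.32 and 30.5 ± 4.16 CPM (SD, n = 3), a log2 fold change of 0.39 ± 0.18 (SE; edgeR adjusted p = 0.333). It turned to −0.10 once the trend of each library with gene length was removed, as described below. The groups were thus apart for 4 of the 9 genes tested, per, cry and cwo higher and cyc lower, against 28.1% of all genes tested (14.0% higher and 14.1% lower). By the deposited FPKM, a scale added after the values were seen, they were apart for per, cry and cwo, all higher, against 21.3% of all genes tested apart and higher and 7.66% apart and lower. Of all genes whose groups were apart, 49.8% were higher by TMM-scaled CPM and 73.5% by FPKM.

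For both bZIP regulators of Clk the groups overlapped. The repressor gene vri, which also acts in hair and tracheal development, was at 35.6, 113 and 59.3 CPM in controls 1 to 3 and at 139.9, 71.7 and 73.2 CPM in DNMT3L 1 to 3. Control 2 and DNMT3L 1 were the high libraries of their groups and the ranges overlapped. The log2 fold change was 0.45 ± 0.47 (SE; edgeR adjusted p = 0.541). It was 0.06 without DNMT3L 1, 1.00 without control 2 and −0.25 without both libraries numbered 1.

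The activator gene Pdp1 was at 6.20, 11.8 and 15.9 CPM in controls 1 to 3 and at 15.4, 19.8 and 13.6 CPM in DNMT3L 1 to 3. Control 3 exceeded DNMT3L 1 and DNMT3L 3, and control 1 stood below the other 5 libraries. The log2 fold change was 0.53 ± 0.36 (SE; edgeR adjusted p = 0.401) and fell to 0.23 without control 1. The gene has 13 annotated transcripts from 4 start sites, of which the epsilon form acts in the clock and others in muscle and fat, and the counts are per gene. The 4 start sites lie within 55912 bases of 3L, and only 35854 bases and a single listed gene separate Pdp1 from Clk.

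The ratio of the FPKM of vri to that of Pdp1 within a library was 14.6, 24.7 and 9.54 in controls 1 to 3 and 23.2, 9.27 and 13.8 in DNMT3L 1 to 3. A ratio within a library does not depend on how libraries are scaled. The difference in mean log2 ratio, DNMT3L minus control, was −0.07 (exact permutation test, two-sided, p = 0.7, where 3 against 3 cannot go below 0.1). Ratios of per to tim were 3.71, 1.84 and 1.76 in controls and 1.83, 2.97 and 3.00 in DNMT3L, a mean log2 difference of 0.15 (exact permutation p = 0.9). Of 5 planned ratios 4 could be computed, since Clk was at 0 in 3 libraries. The groups overlapped in each of the 4, and their Benjamini-Hochberg adjusted exact p was 0.9.

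Of the 3 genes with higher and separate DNMT3L libraries, cry had the widest gap. Expression of cry, the blue-light receptor gene, was 0.730, 0.976 and 1.14 CPM in controls 1 to 3 and 1.44, 1.85 and 2.38 CPM in DNMT3L 1 to 3. The lowest DNMT3L library was 1.26 times the highest control, and the order of libraries differed from that of per, with DNMT3L 3 the highest. The means were 0.948 ± 0.206 and 1.89 ± 0.471 CPM (SD, n = 3), 1.98-fold higher in DNMT3L, with a log2 fold change of 0.99 ± 0.36 (SE; edgeR adjusted p = 0.332, unadjusted p = 0.0295). The estimate rests on 50 reads in controls and 109 in DNMT3L. The log2 fold change was 0.83 without control 1 (edgeR unadjusted p = 0.0874) and 1.00 without both libraries numbered 1 (unadjusted p = 0.0694). Without DNMT3L 3 it was 0.79 (edgeR unadjusted p = 0.116), and by limma on log2(FPKM + 1) it was 0.47. The gene lies on 3R from 19212154 to 19215442 on the plus strand, and its exons share 329 bases with a noncoding RNA of the same strand and 9 bases with vib on the opposite strand. The gene vib had 4948 reads in controls and 6989 in DNMT3L, and their part in the count of cry was not tested. The difference in mean log2 ratio of cry to tim, DNMT3L minus control, was −0.04 (exact permutation p = 0.9), with ratios from 1.21 to 4.71 in controls and from 1.20 to 3.75 in DNMT3L.

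The kinase genes followed the library order of tim and vri. Expression of dco, the casein kinase 1 of PER that also acts in growth control through the Hippo pathway, was 80.1, 166 and 137 CPM in controls 1 to 3 and 231, 139 and 163 CPM in DNMT3L 1 to 3. Control 2 exceeded DNMT3L 2 and DNMT3L 3. The log2 fold change was 0.48 ± 0.32 (SE; edgeR adjusted p = 0.387). Expression of sgg, the GSK3 kinase that phosphorylates TIM and acts in Wnt signalling, was 37.6, 112 and 74.1 CPM in controls 1 to 3 and 171, 82.4 and 106 CPM in DNMT3L 1 to 3. The log2 fold change was 0.68 ± 0.44 (SE; edgeR adjusted p = 0.380). The exons of sgg, which has 19 annotated transcripts, share 1470 bases with a noncoding RNA of the same strand that had 0 reads. The log2 fold change of dco was 0.23 without control 1, 0.23 without DNMT3L 1 and 0.71 without control 2. That of sgg was 0.36, 0.33 and 1.10 in the same order, the last at an unadjusted edgeR p under 0.05. Without both libraries numbered 1 the values were −0.0046 for dco and 0.01 for sgg. In tim, vri, dco and sgg the 6 libraries stood in the same order from high to low, DNMT3L 1, control 2, DNMT3L 3, DNMT3L 2, control 3 and control 1. The same order occurred outside the 10 genes, as in nocte and Fmr1 of the wider lists below. Its share over all genes was not counted.

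Genes with like profiles were picked by their likeness. The 3 genes whose profile over the 6 libraries was nearest to that of tim, by root mean square difference in log2 CPM, were Spn (0.0915), which encodes spinophilin, the histone demethylase gene lid (0.0979) and the tyrosine kinase gene Abl (0.103). Those nearest to per were CG17378 (0.154), the homeobox gene Ptx1 (0.155) and DIP-alpha (0.169), a cell surface protein gene of neurons. Spn was at 24.6, 98.2 and 62.2 CPM in controls 1 to 3 and at 164, 87.6 and 91.3 CPM in DNMT3L 1 to 3, again with control 1 lowest and control 2 above DNMT3L 2 and DNMT3L 3.

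**Figure D2:**
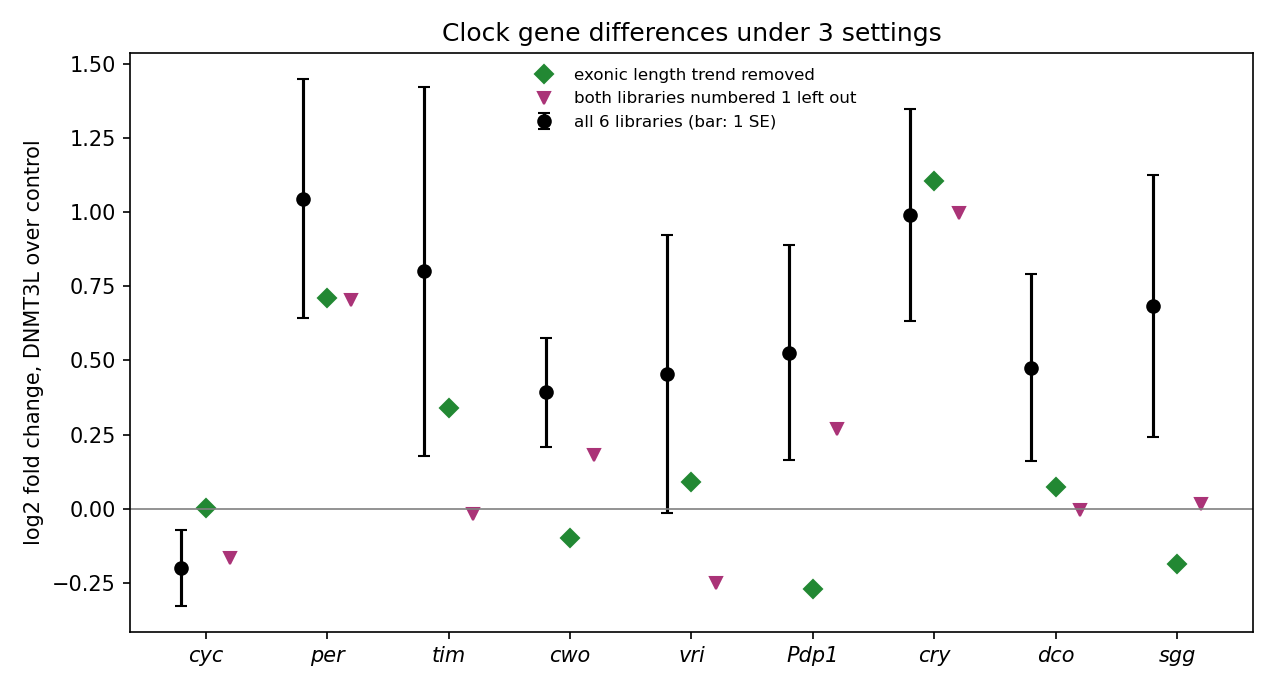
Log2 fold change (DNMT3L over control) of the 9 clock genes tested, from all 6 libraries (black, bar 1 SE), with each library's trend on exonic length removed (green) and without both libraries numbered 1 (purple). For per and cry all 3 estimates lie between 0.70 and 1.10, while those of tim, vri, dco, sgg, cwo and Pdp1 fall towards 0 or below it under at least 1 setting.

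Gene length moved with the direction of the differences over the whole table. Among 2087 genes with an exonic size of 4000 bases or more, the median log2 fold change was 0.50 and 86.8% were positive, whereas among 4338 genes under 2000 bases the median was −0.29 and 22.1% were positive (size limits set after the values were seen). Of the clock genes tested, 7 were of 4000 bases or more and all 7 were positive, with 2 of the 7 apart and higher against 25.3% of all genes of that size. The 2 genes under 2000 bases were cyc, with 1625 bases and a lower level, and cry, with 1896 bases and a higher level. In that size class 6.09% of genes were apart and higher. After removal of each library's trend on length the log2 fold change was 0.71 for per (edgeR unadjusted p = 0.0452, adjusted p = 0.216) and 1.10 for cry (unadjusted p = 0.0196, adjusted p = 0.171). It was 0.34 for tim, 0.09 for vri, 0.07 for dco and 0.0026 for cyc, and it was −0.27 for Pdp1, −0.19 for sgg and −0.10 for cwo. In that edgeR fit 2 of the 9 clock genes and 2098 of all 9495 genes tested had an unadjusted p under 0.05. With the trend kept these counts were 2 and 1427. The median over the 9 genes was 0.53 before and 0.07 after, beside −0.03 and −0.01 for all genes tested. It was 0.29 without control 1, 0.33 without DNMT3L 1, 1.00 without control 2 and 0.01 without both libraries numbered 1.

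**Figure D3:**
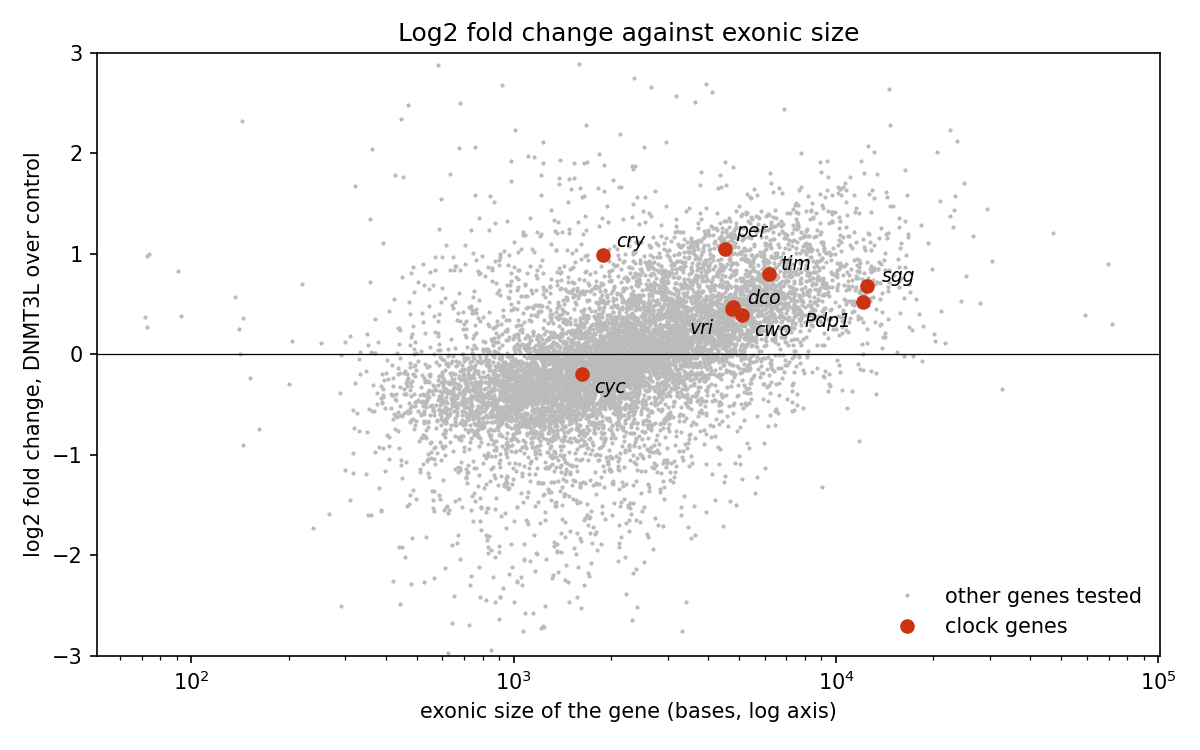
Log2 fold change (DNMT3L over control) against exonic size in bases on a log axis, for the genes tested (grey) and the 9 clock genes among them (red, labelled). The cloud rises with size, and cry lies towards its upper edge among genes of its size while cyc lies well within it. The 39 genes beyond a log2 fold change of 3 in either direction are outside the axis.

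Position linked some members. The genes sgg and per are neighbours on X, 6026 bases apart with 3 listed genes between them, of which 1 was tested. The next nearest were Clk and Pdp1 on 3L. The arms X and 2L held 2 members each, and 3L and 3R held 3 each.

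Around the core loop, 47 further genes in 4 lists act in protein turnover, gene regulation, input or output. Of the 46 tested, 42 were higher in DNMT3L by their log2 fold change, whose median was 0.57. Over all genes tested 47.7% were positive, and 86.8% of those of 4000 bases or more. Of the 46, none passed edgeR after adjustment, and 8 had an unadjusted edgeR p under 0.05, all higher (6.23% of all genes tested were higher at that p). The groups were apart for 16, of which 15 were higher, against 28.1% of all genes tested apart and 14.0% apart and higher. By the deposited FPKM they were apart for 22, all higher, beside 21.3% of all genes. Without the length trend the median was 0.60 for the output list and between −0.24 and 0.08 for the other 3 lists.

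Among 12 genes of PER and TIM kinases, phosphatases and degradation, 11 were positive, beside 47.7% of all genes tested. Their median was 0.35, and none reached an unadjusted edgeR p of 0.05. The groups were apart and higher for 2 of the 12, beside 14.0% of all genes tested. These were tws, which encodes a regulatory subunit of protein phosphatase 2A (134 ± 47.6 against 188 ± 32.8 CPM, SD, n = 3) and mts, which encodes its catalytic subunit (592 ± 33.2 against 660.4 ± 33.5 CPM). The log2 fold changes of tws and mts were 0.07 and −0.01 without the length trend. Pp1-87B, the most abundant gene of the list, was at 655 ± 7.85 against 682 ± 35.1 CPM. CkIIalpha, the catalytic subunit of a kinase of PER and TIM, had a log2 fold change of 0.04 ± 0.12 (SE; edgeR adjusted p = 0.820). The median of the list was 0.08 without the length trend and 0.02 without both libraries numbered 1.

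Of 12 regulators of transcription and RNA, 11 were positive, beside 47.7% of all genes tested. Their median was 0.55, which was 0.01 without the length trend. An unadjusted edgeR p under 0.05 was reached by 2 of the 12, Fer2 and Hr51, beside 15.0% of all genes tested. Fer2, a bHLH gene needed for a class of clock neurons, was at 19.5, 20.6 and 19.98 CPM in controls 1 to 3 and at 36.6, 24.2 and 36.2 CPM in DNMT3L 1 to 3. Its controls were nearly equal and its log2 fold change was 0.69 ± 0.20 (SE; edgeR adjusted p = 0.329), 0.67 without control 1 and 0.96 without the length trend. Hr51, a nuclear receptor gene of the PDF neurons and the mushroom body, was at 5.11 ± 0.506 against 7.75 ± 0.800 CPM (SD, n = 3), a log2 fold change of 0.60 ± 0.22 (SE; edgeR adjusted p = 0.332). The RNA-binding protein gene lark was the only gene of the 4 lists apart and lower, at 477 ± 13.3 against 429 ± 16.7 CPM (SD, n = 3), but in FPKM its groups overlapped and its means were 205 ± 17.5 against 207 ± 5.34. The translation regulator gene me31B was at 394 ± 20.1 against 416 ± 17.2 CPM.

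The 5 genes of light and temperature input split, with 3 positive, a median of 0.16 and none at an unadjusted edgeR p under 0.05. The tim paralog timeout was apart and higher by a small margin, at 39.4 ± 1.02 against 43.9 ± 2.24 CPM (SD, n = 3), and was at −0.24 (log2) without the length trend. nocte, a gene of temperature entrainment, was at 326 ± 164 against 508 ± 253 CPM, and qsm, a gene of light input, was lower at 88.2 ± 25.5 against 58.7 ± 17.6 CPM (edgeR adjusted p = 0.334) with overlapping groups. The opsin gene ninaE, which marks adult outer photoreceptors, had no read in 4 of the 6 libraries.

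Output genes showed the highest median. All 17 tested of 18 were positive, beside 47.7% of all genes tested and 86.8% of those of 4000 bases or more. Their median was 0.86, which was 0.60 without the length trend and 0.45 without both libraries numbered 1. The gene takeout (to) had too few reads to test. The groups were apart and higher for 10 of the 17, beside 14.0% of all genes tested and 25.3% of those of 4000 bases or more. An unadjusted edgeR p under 0.05 was reached by 6, all higher, beside 6.23% of all genes. Most of these genes are expressed in many neurons, and the neuron marker sum was likewise apart between the groups. The auxiliary subunit genes of the sodium leak channel that depolarises clock neurons were unc79 (12.1 ± 5.13 against 31.2 ± 10.5 CPM, SD, n = 3) and unc80 (12.6 ± 5.6 against 31.7 ± 8.22 CPM). Their log2 fold changes were 1.36 ± 0.41 and 1.32 ± 0.40 (SE; edgeR adjusted p = 0.331 for each), and 0.58 and 0.57 without the length trend. The pore gene na overlapped by a small margin, with DNMT3L 2 at 34.3 CPM and control 2 at 34.6 CPM.

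The sleep gene qvr (sleepless), a modulator of potassium channels, was at 9.85, 29.6 and 23.7 CPM in controls 1 to 3 and at 69.0, 46.0 and 51.9 CPM in DNMT3L 1 to 3. Its log2 fold change was 1.40 ± 0.40 (SE; edgeR adjusted p = 0.329), and DESeq2 called it (adjusted p = 0.0440), as it called 2.44% of the genes it tested. The calcium-activated potassium channel gene slo (5.24 ± 3.44 against 15.95 ± 5.24 CPM) and the gene of its binding partner Slob (4.71 ± 2.92 against 11.6 ± 1.06 CPM) were apart too, with control 1 the lowest library in both. Among neuropeptide genes of clock and other neurons, Dh44 was at 22.0 ± 11.6 against 47.9 ± 7.79 CPM with a log2 fold change of 1.12 ± 0.43 (SE; edgeR adjusted p = 0.332), and it was 1.14 without the length trend. Dh31 (22.0 ± 5.41 against 29.8 ± 1.41 CPM), ITP (60.2 ± 21.7 against 88.3 ± 9.98 CPM) and sNPF (21.4 ± 10.1 against 35.9 ± 2.75 CPM) were apart and higher without reaching an unadjusted edgeR p of 0.05. Of the most abundant genes, Fmr1 was at 169 ± 74.3 against 263 ± 79.9 CPM and wake at 91.1 ± 23.2 against 116 ± 23.2 CPM, both overlapping.

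The gene Pdf, for the neuropeptide of the lateral clock neurons, was at 12.1, 22.7 and 27.2 CPM in controls 1 to 3 and at 18.4, 27.0 and 32.9 CPM in DNMT3L 1 to 3. All 3 DNMT3L libraries lay within or above the control range, the groups overlapped, and the log2 fold change was 0.34 ± 0.35 (SE; edgeR adjusted p = 0.546). The gene of its receptor, Pdfr, had a single read in control 1 and was at 0.388 ± 0.322 against 0.954 ± 0.181 CPM over the groups (SD, n = 3; edgeR adjusted p = 0.342).

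**Figure D4:**
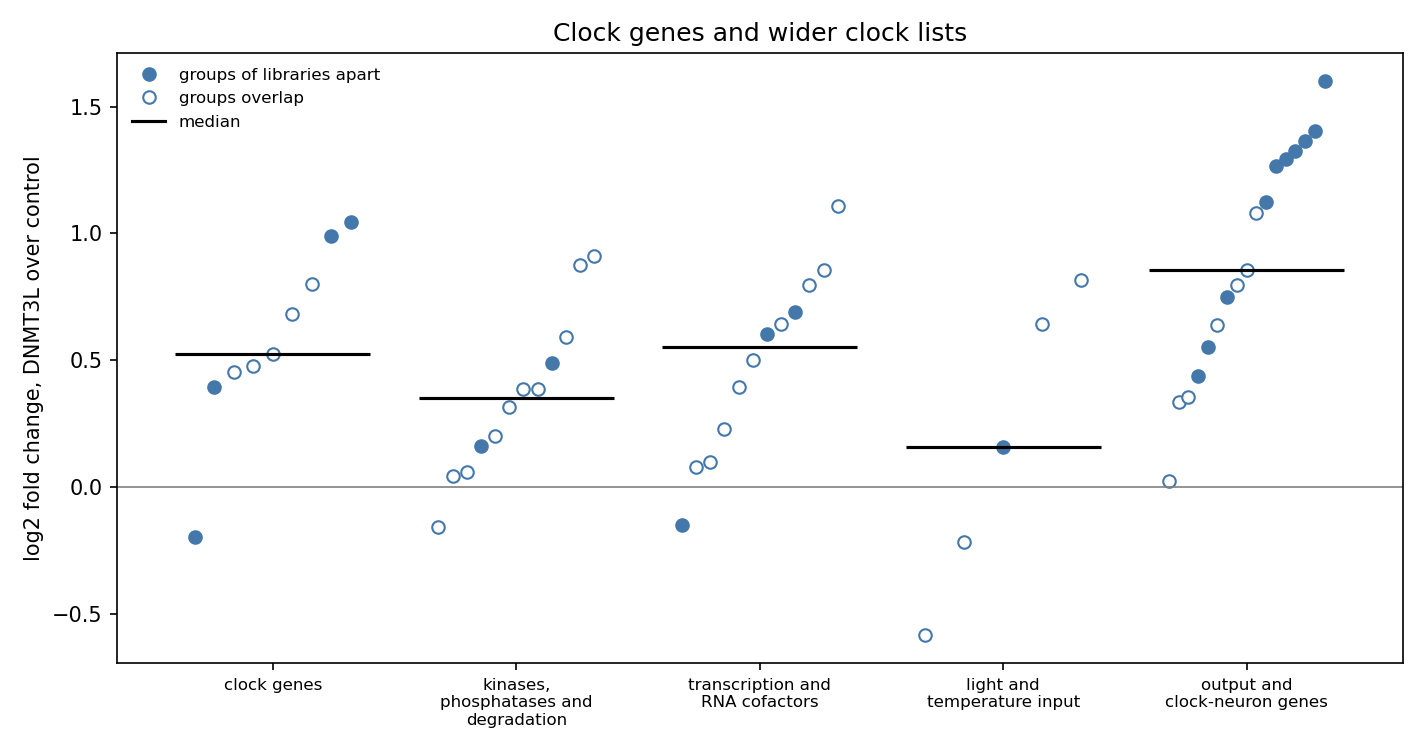
Log2 fold change (DNMT3L over control) of each tested gene, one point per gene, for the 9 clock genes and the 4 wider lists, filled where the 3 DNMT3L libraries do not overlap the 3 controls, with a bar at the list's median. Medians are 0.53, 0.35, 0.55, 0.16 and 0.86 from left to right, and the output list holds 10 filled points.

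The functional terms in the deposited table give another set of related genes. A term with the word circadian was attached to 64 genes, among them 6 of the 10 clock genes but neither per nor tim. Of these 58, 55 were tested and 40 of the 55 were positive, beside 47.7% of all genes tested, with a median of 0.42. The groups were apart and higher for 9 and apart and lower for 2, beside 14.0% and 14.1% of all genes tested. The median was 0.10 without the length trend and 0.02 without both libraries numbered 1. None was called by edgeR after adjustment, and 8 had an unadjusted edgeR p under 0.05, 6 of them higher and 2 lower (8.79% of all genes tested were lower at that p).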

How the data were processed

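Read counts per gene were deposited as whole numbers for each library, with FPKM values that the authors computed per the file headers. The FPKM could be recomputed from counts, exonic size and total count within 0.01 for 100% of values. Reads were processed with HTSeq 0.6.1, HISAT2 2.0.1, cutadapt 1.9.1 and DESeq2 on BDGP6 (dm6), per the submitters' processing notes, which are used here without the role of each tool. Neither strand setting nor annotation release is stated, and reads of overlapping genes cannot be assigned with certainty. Gene structures are from Ensembl release 115, where the coordinates of all 10 clock genes were identical.

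Counts were filtered with filterByExpr, scaled by TMM and tested with glmQLFit and glmQLFTest (edgeR 4.0.16, R 4.3.3), two-sided, with Benjamini-Hochberg adjustment over 9495 genes and a threshold of 0.05. SEs are those implied by the F statistic. The length trend was fitted per library by loess (span 0.5) to log2 deviations against log2 exonic size, entered as an offset. Profiles were compared on log2 CPM with a prior count of 2. Alternatives were DESeq2 1.42.0, limma 3.58.1 on log2(FPKM + 1) and log2(FPKM + 0.1), other size factors, no filter, a replicate block and left-out libraries. Whether groups were apart was also counted on the deposited FPKM, an alternative chosen after seeing the data. Exact tests used scipy 1.17.1.

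Members, lists and alternatives were chosen with earlier results of these data known. The rule named every clock gene, the genes of the wider lists whose groups were apart, the 2 with the highest mean in each list, and the 3 nearest profiles of per and tim. CkIIalpha, na, Pdf, to and ninaE were named after their values were seen.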

Additional observations from a re-analysis of the deposited data

How the results depend on the processing

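No clock gene was called by edgeR, DESeq2 or limma under any alternative run. The number of genes called in the whole table was 0 by edgeR and with each library left out (lowest and highest count 0), 260 by DESeq2, 2 with RLE factors, 6 without the low-count filter, 16 without both libraries numbered 1, 13 without the length trend, and 13 and 11 by limma with pseudocounts of 1 and 0.1. The number of clock genes at an unadjusted p under 0.05 was 2 (per and cry), 0 without both libraries numbered 1, and 0 to 3 with single libraries left out (per, vri and sgg without control 2, and cry alone without control 3 or DNMT3L 1). Over all genes edgeR gave 1427 of 9495 at that p and 2098 of 9495 without the length trend. It gave 1125 of 9707 without control 1 and 1213 of 9591 without both libraries numbered 1. The median of the clock genes was 0.015 without both libraries numbered 1, 0.074 without the length trend and 0.29 to 1.00 with single libraries left out. The median of the wider lists was 0.57, and 0.079 and 0.11 under the same settings and 0.30 to 0.70 with single libraries left out, where 4 to 14 genes had an unadjusted p under 0.05. Signs turned without both libraries numbered 1 for tim (−0.018), vri (−0.25) and dco (−0.0046), and without the length trend for cyc (0.0026), Pdp1 (−0.27), cwo (−0.10) and sgg (−0.19). Log2 ratio differences turned for vri to Pdp1 (0.0081 with a pseudocount, 0.43 without the length trend), cry to tim (0.20 and 0.68) and dco to sgg (0.26 without the length trend). With single libraries left out they were −0.042 to 0.50 for per to tim, −0.41 to 0.29 for vri to Pdp1, −0.57 to 0.47 for cry to tim and −0.39 to −0.12 for dco to sgg. The causes were not tested. Deviations from the group means in same-numbered libraries were negatively correlated (r of −0.66, −0.54 and −0.18). These correlations rest on means of 3 libraries and cannot settle whether the numbers pair the samples. With a replicate block, 0 genes were called, 0 clock genes and 4 genes of the wider lists had an unadjusted p under 0.05, and the medians were 0.61 and 0.60. Depth limits Clk, tim, cry and per, which rest on 11 to 384 reads over 6 libraries.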
